A study of Mus musculus with 8 samples.

Results

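The SOCS family comprises Cish and Socs1 to Socs7, which encode inhibitors of cytokine and growth factor signalling, some of them induced by the signal they inhibit. Its members were taken as all probes annotated to these 8 genes, of 15967 genes named on the array. There were 10 such probes among the 24607 on the array, 2 each for Socs6 and Socs7 and 1 for each other gene. A probe was analysed if its signal exceeded background in both samples of some group, at a detection p under 0.05, and 7 of the 8 genes met this. The arrays held brown adipose tissue (brown fat) of C57BL/6J mice at 4 °C for 4 h, brown fat at room temperature (RT), quadriceps muscle at 4 °C for 4 h and quadriceps muscle at RT, with 2 arrays for each group and 8 in all. All groups were C57BL/6J mice on chow, no mutation, transgene or drug is named, and the labels give neither age nor sex. The mice went into the cold with neither food nor bedding, and whether the RT mice were kept likewise is not stated. The members were selected on their measured log2 changes in muscle, where Cish, Socs2 and Socs3 were among the strongest falls in the cold. The muscle values of the family are therefore given below as a description with no test. Tests of the family are confined to brown fat, and other pathway genes are tested in both tissues.

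A cytokine or hormone such as growth hormone binds its receptor, Janus kinases on the receptor phosphorylate STAT transcription factors, and the STATs switch on target genes in the nucleus. Cish and some of the Socs genes are among those targets, so that the signal shuts itself off. The proteins of the family carry an SH2 domain that docks on phosphorylated receptors or kinases, and a SOCS box that recruits a ubiquitin ligase. Cish and Socs2 are classic targets of STAT5 downstream of growth hormone, and Socs3 is one of STAT3 downstream of Il6st-type receptors and leptin. Socs4 and Socs5 are best known as inhibitors of growth factor receptors, and Socs6 and Socs7 of insulin and growth factor signalling.

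Promoters of genes whose levels moved are shown, where a window was available, for the presence of the letters that STAT dimers are known to bind. Socs2, which also moved, is not among them. The windows are RefSeq sequences of build GRCm38.p6 that run from 250 bases before to 50 bases after the gene start. Of the 8 genes, 4 were searched: Cish, Socs1, Socs3 and Socs4. No window was matched for Socs2, Socs5 or Socs7, and Socs6 was left out beforehand. Each was searched for the STAT-type motif TTCNNNGAA and for the cyclic AMP response element TGACGTCA. Both motifs read the same on either strand, so that each match stands on both, and a match of one cannot overlap the other here because TGACGTCA was not found. The Cish and Socs3 windows are printed because they hold a match, and the Socs4 window because that gene rose in brown fat without one. The capitals mark the STAT-type motif.
Cish: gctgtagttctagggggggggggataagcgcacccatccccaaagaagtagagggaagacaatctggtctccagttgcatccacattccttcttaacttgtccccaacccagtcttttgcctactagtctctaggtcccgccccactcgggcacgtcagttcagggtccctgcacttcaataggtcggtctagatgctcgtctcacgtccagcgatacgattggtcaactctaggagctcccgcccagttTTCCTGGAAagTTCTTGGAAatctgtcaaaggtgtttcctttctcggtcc
Socs3: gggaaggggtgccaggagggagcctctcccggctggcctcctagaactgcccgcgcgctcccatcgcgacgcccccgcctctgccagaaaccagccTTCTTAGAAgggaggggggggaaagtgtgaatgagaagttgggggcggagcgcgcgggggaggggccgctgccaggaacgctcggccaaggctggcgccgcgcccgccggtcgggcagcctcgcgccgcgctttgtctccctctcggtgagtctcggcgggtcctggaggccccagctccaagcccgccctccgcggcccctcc
Socs4: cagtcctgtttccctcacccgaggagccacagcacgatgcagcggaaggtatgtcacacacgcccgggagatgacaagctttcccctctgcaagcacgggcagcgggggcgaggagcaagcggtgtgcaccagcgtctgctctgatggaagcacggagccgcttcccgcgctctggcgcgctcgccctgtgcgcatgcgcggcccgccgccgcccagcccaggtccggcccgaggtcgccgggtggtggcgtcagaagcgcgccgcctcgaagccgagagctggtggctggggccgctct
The Cish window lies at chr9:107296409-107296708 on the plus strand, the Socs3 window at chr11:117969317-117969616 on the minus strand, and the Socs4 window at chr14:47276670-47276969 on the plus strand. Cish holds 2 matches, TTCCTGGAA at bases 1 to 9 and TTCTTGGAA at bases 12 to 20 after the gene start. Socs3 holds 1, TTCTTAGAA, from base -154 to base -146. Neither Socs1 nor Socs4 holds one, and none of the 4 windows holds TGACGTCA. Of all 32851 promoter windows of this length 8.3% hold at least 1 TTCNNNGAA, 0.457% hold 2 or more, and 1.79% hold TGACGTCA. A match is a run of letters and not a measured binding site.

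**Figure D1:**
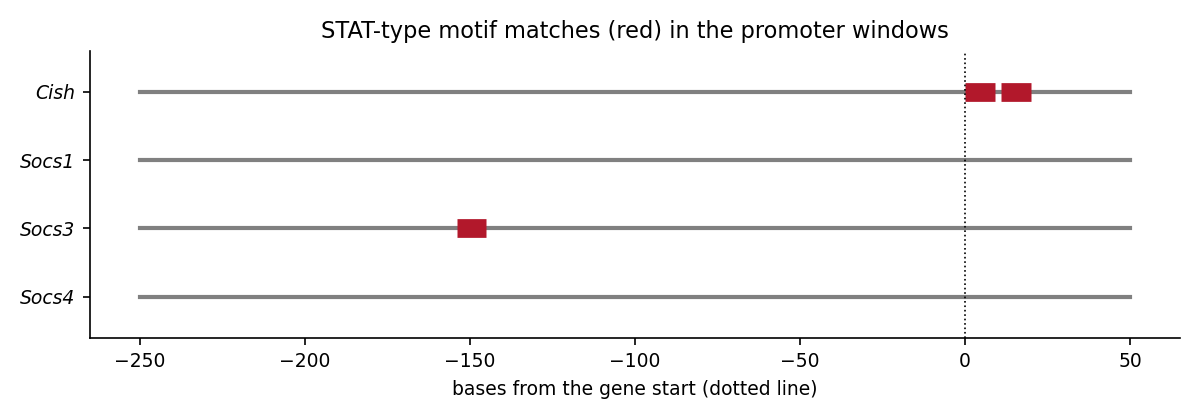
Position of the STAT-type motif TTCNNNGAA (red) in the promoter windows of Cish, Socs1, Socs3 and Socs4, drawn in bases from the gene start. Cish has 2 matches just after the start, Socs3 has 1 upstream of it, and Socs1 and Socs4 have 0.

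Each array gave an intensity for every probe, and values below are log2 intensities after background correction and quantile normalisation unless called raw. Between 10468 and 11280 probes were above background on an array. The tissue labels were checked against marker lists, and 2 arrays stood apart. The 8 measured muscle fibre markers, such as Acta1 and Ckm, averaged 5.88 on replicate 1 of brown fat at 4 °C, where 4 of the 8 were above background, and 12.29 on replicate 2, against 11.96 and 12.25 in brown fat at RT. The 8 brown adipocyte markers, such as Ucp1 and Cidea, averaged 8.08 and 11.09 in muscle at 4 °C, against 6.82 and 6.95 in muscle at RT. Muscle fibre transcripts were thus high on 3 of 4 brown fat arrays. Among muscle arrays, brown adipocyte transcripts were highest on replicate 2 in the cold. Replicate 1 of muscle in the cold was raised to a lesser degree, with Ucp1 at 9.16, against 6.18 and 5.93 at RT. Of the 8 markers only Elovl3 was not raised on that array. Leaving out replicate 2 therefore does not free the muscle comparison of brown adipocyte transcripts. In brown fat the 2 measured lymphocyte markers of 7, Cd3d and Cd79b, averaged 5.69 and 5.46 at 4 °C, against 6.06 and 5.98 at RT, and both were above background on each RT array but 1 and 0 of them on the cold arrays. Brown fat at RT was the one group in which both arrays were above background for them, so that the detection filter itself favoured a lower value in the cold. The 6 macrophage markers of 8 averaged 8.25 and 7.90 in brown fat at 4 °C, against 8.30 and 8.41 at RT, and the 6 endothelial markers 9.53 and 9.32, against 9.83 and 9.80. Of the macrophage markers Cd14 and Fcer1g were lower on both cold arrays, and the groups overlapped for Adgre1, Lyz2, C1qa and C1qb. Of the endothelial markers Cdh5, Tek, Emcn and Ramp2 were lower, and Pecam1 and Kdr were not. The 5 fibroblast markers averaged 8.65 and 8.71 in muscle at 4 °C, against 9.08 and 9.35 at RT. Among these, Col1a1 read 7.36 and 7.53 at 4 °C, against 9.35 and 9.44 at RT, and Col3a1 was also lower. Dcn read 13.66 and 13.69, against 13.76 and 13.74, and Pdgfra was higher, at 9.20 and 9.26 against 9.02 and 9.12. The groups overlapped for Lum. The 1 measured neutrophil marker of 5, S100a8, read 7.70 and 6.35 in brown fat at 4 °C, against 7.62 and 6.75 at RT. The larger family changes and the pathway counts are also given without 1 or both of the 2 arrays that stood apart. Most other values include these arrays, and the part of other cells in them was not tested beyond that. In whole tissue, fewer cells of a type and less RNA per cell cannot be told apart.

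**Figure D2:**
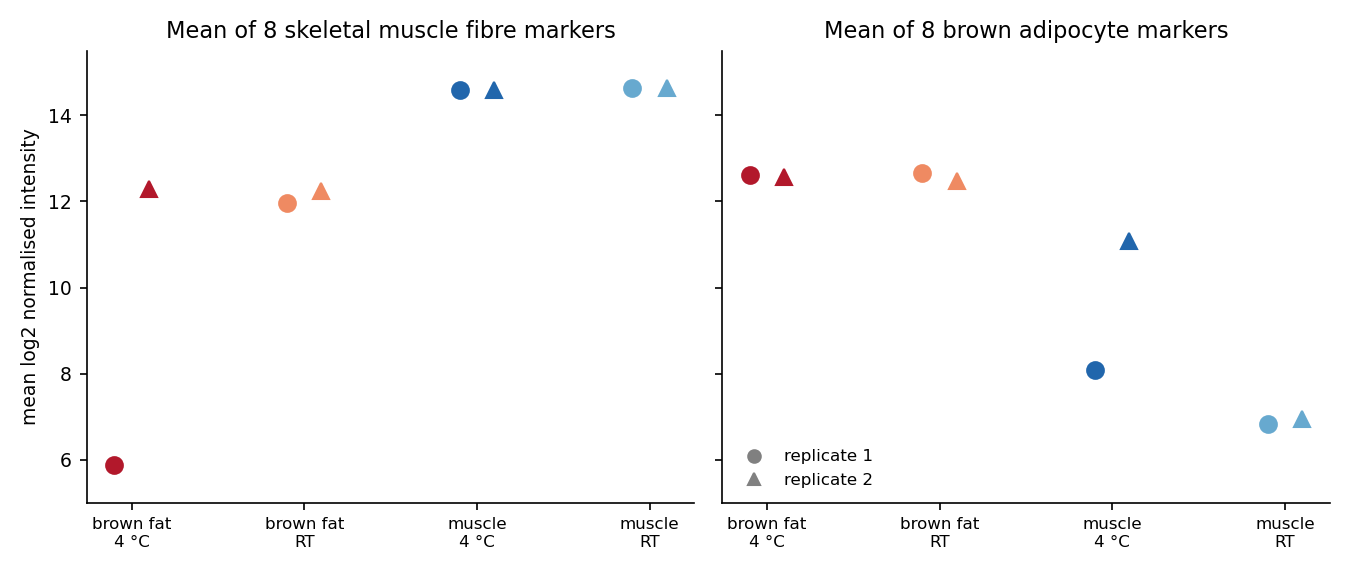
Mean log2 normalised intensity of the 8 muscle fibre markers (left) and 8 brown adipocyte markers (right) on each array, with circles for replicate 1 and triangles for replicate 2. Replicate 1 of brown fat in the cold is low in muscle transcripts (5.88) and replicate 2 of muscle in the cold is rich in brown fat transcripts (11.09).

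In brown fat, 3 of the 7 measured genes were called different between 4 h of cold and RT, and in both directions. Since RT housing is not stated, cold and the lack of food or bedding cannot be told apart. Socs2 rose 4.14-fold and Socs4 rose 2.91-fold, while Cish fell 4.1-fold. The background in this comparison was 16.6% of 9963 genes called in either direction, with 8.38% higher and 8.24% lower. Median scaling called 58 genes higher and 194 lower, against 835 and 821. Groups did not overlap in 59.6% of all genes tested. All 7 genes were above background on both arrays of both brown fat groups. Calls rest on limma with Benjamini-Hochberg adjustment over those 9963 genes and a threshold of 0.05.

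Socs2, which limits growth hormone signalling in mice, had levels of 10.96 and 11.19 in brown fat at 4 °C, against 9.38 and 8.67 in brown fat at RT. Both cold arrays lay above both RT arrays by more than either pair differed. The log2 fold change was 2.05 (SE 0.35, 95% interval 1.23 to 2.87, limma adjusted p = 0.0106). On the raw scale the signals were 1692 and 2512 in the cold, against 852 and 467 at RT. Without replicate 1 in the cold, the array low in muscle transcripts, the change was 2.16 (limma adjusted p = 0.0399). The call was lost in 1 of 18 alternatives, without replicate 2 at RT, where the change was 1.71 (limma adjusted p = 0.0632).

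Socs4, an inhibitor of epidermal growth factor receptor signalling, read 8.50 and 8.09 in brown fat at 4 °C, against 6.85 and 6.66 in brown fat at RT. The groups were again apart by more than their own spread. Its log2 fold change was 1.54 (SE 0.21, interval 1.05 to 2.03, limma adjusted p = 0.00542), and it was 1.34 without replicate 1 in the cold (limma adjusted p = 0.0253). Median scaling in place of quantile normalisation ended the call, at a change of 1.26 and a limma adjusted p of 0.103.

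Cish, the first described member and a STAT5 target, moved the other way. It read 9.97 and 9.08 in brown fat at 4 °C, against 12.23 and 10.88 in brown fat at RT. The groups did not overlap, but the RT arrays differed from each other by more than 1 log2 unit, with raw signals of 852 and 619 in the cold against 5369 and 1792 at RT. The log2 fold change was -2.03 (SE 0.54, interval -3.31 to -0.76, limma adjusted p = 0.0444). This call lies close to the threshold and was lost in 10 of 18 alternatives, with values from -2.73 to -1.37 and adjusted p from 0.00222 to 0.175. Among them were 5 of the 8 leave-outs: leaving out replicate 1 of the RT brown fat gave -1.37 (limma adjusted p = 0.175), leaving out replicate 1 or 2 of the cold brown fat gave -2.47 (0.0667) or -1.58 (0.146), and leaving out either RT muscle array gave -2.03 (0.058 and 0.0588). Of the cold arrays, the one low in muscle transcripts had the higher Cish level. With that array and replicate 2 of muscle in the cold both left out, the change was -2.48 (limma adjusted p = 0.0456).

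The other 4 measured genes were not past the threshold in brown fat. Socs3, the inhibitor of Il6st and leptin receptor signalling, read 6.17 and 5.95 at 4 °C, against 6.76 and 6.30 at RT, a log2 fold change of -0.47 (interval -1.34 to 0.41, limma adjusted p = 0.438). Its interval allows a fall of more than 2-fold. Socs1, the inhibitor of interferon signalling, read 7.60 and 7.48 at 4 °C, against 7.43 and 7.44 at RT (change 0.10, interval -0.18 to 0.39). Socs5, known as an inhibitor of epidermal growth factor and interleukin-4 receptor signalling, read 9.43 and 9.05 at 4 °C, against 9.41 and 9.13 at RT. Its change of -0.03 had an interval of -0.42 to 0.36. Socs6 read 6.26 and 6.21 at 4 °C, against 6.37 and 6.07 at RT, with a change of 0.01 (interval -0.32 to 0.33). With quantile normalisation the intervals of Socs1, Socs5 and Socs6 stay within 0.42 log2 units of 0. By median scaling their SEs were 0.41, 0.42 and 0.40, so that setting allows larger changes.

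**Figure D3:**
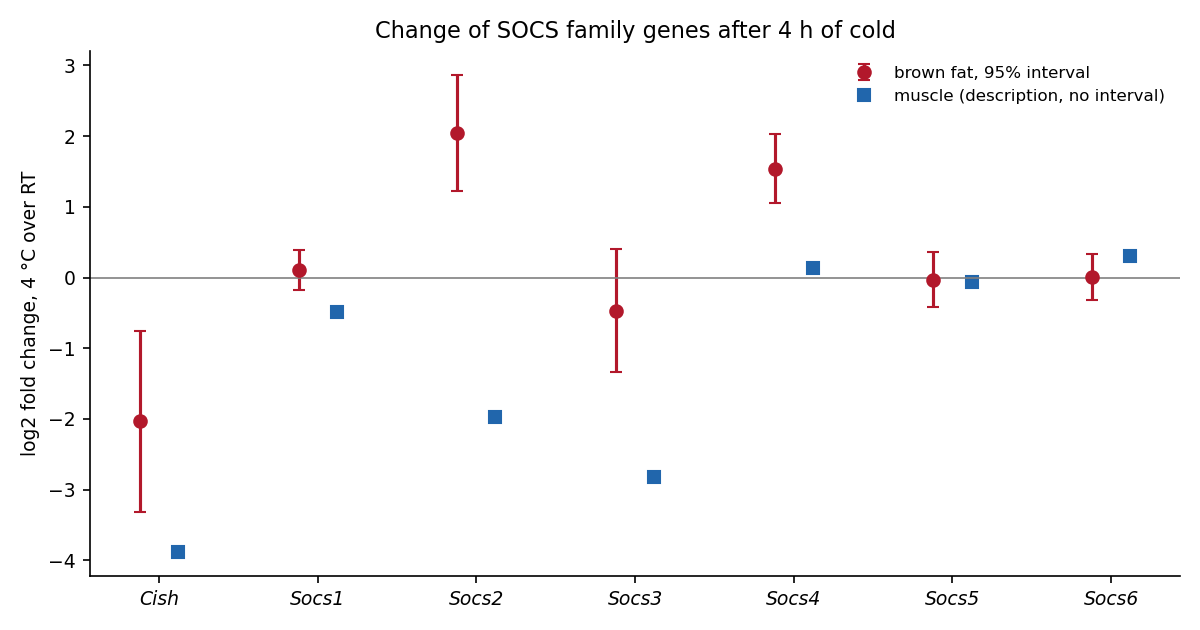
Log2 fold change at 4 °C over RT for the 7 measured genes, with 95% intervals in brown fat (red circles) and as plain differences of means in muscle (blue squares). Socs2 lies at 2.05 in brown fat and -1.97 in muscle, whereas Cish is below 0 in both tissues.

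In muscle the same 4 h of cold was accompanied by lower levels of 3 genes. Cish read 8.18 and 7.75 in muscle at 4 °C, against 11.31 and 12.39 in muscle at RT. Every cold array lay more than 3 log2 units below every RT array, a 14.8-fold difference of means. On the raw scale Cish was 348 and 314 in the cold, against 2330 and 5485 at RT. Socs3 read 5.75 and 5.64 in muscle at 4 °C, against 7.89 and 9.14 at RT, a 7.06-fold difference. Only 1 of the 2 cold arrays was above background for Socs3, so that its cold level is near the lowest that can be read. Without background correction its log2 difference was -2.08, against -2.82. Socs2 read 8.41 and 8.62 in muscle at 4 °C, against 9.99 and 10.98 at RT, 3.92-fold lower in the cold. In all 3 genes replicate 2 at RT was the brighter of the RT arrays, and the log2 differences without it were -3.33 for Cish, -2.16 for Socs3 and -1.47 for Socs2, against -3.88, -2.82 and -1.97 with all arrays. Replicate 2 in the cold, the array rich in brown fat RNA, differed from replicate 1 by less than 0.5 log2 units in each of them, and without it the differences were -3.66, -2.78 and -2.07. Over all 9963 genes, 4.21% were called in muscle in either direction, with 1.83% higher and 2.38% lower. Median scaling called 68 higher and 34 lower, against 182 and 237. Calls are not counted for the family in muscle, since these falls are what brought it to attention.

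The remaining genes differed little in muscle. Socs1 read 7.24 and 7.33 at 4 °C, against 7.64 and 7.92 at RT, with both cold arrays lower (log2 difference -0.49). Socs6 read 6.61 and 6.77 at 4 °C, against 6.27 and 6.48 at RT, with both cold arrays higher (0.31). Socs4 read 5.85 and 6.13 at 4 °C, against 5.62 and 6.09 at RT, and 1 of the RT arrays was not above background. Socs5 read 8.52 and 8.30 at 4 °C, against 8.44 and 8.51 at RT. The groups overlapped for Socs4 and Socs5 and not for the other 5, where 54.5% of all genes tested did not overlap. Socs7 was not above background on any of the 8 arrays with either probe, with raw signals of 60.6 to 99.6, and neither was the second probe of Socs6.

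**Figure D4:**
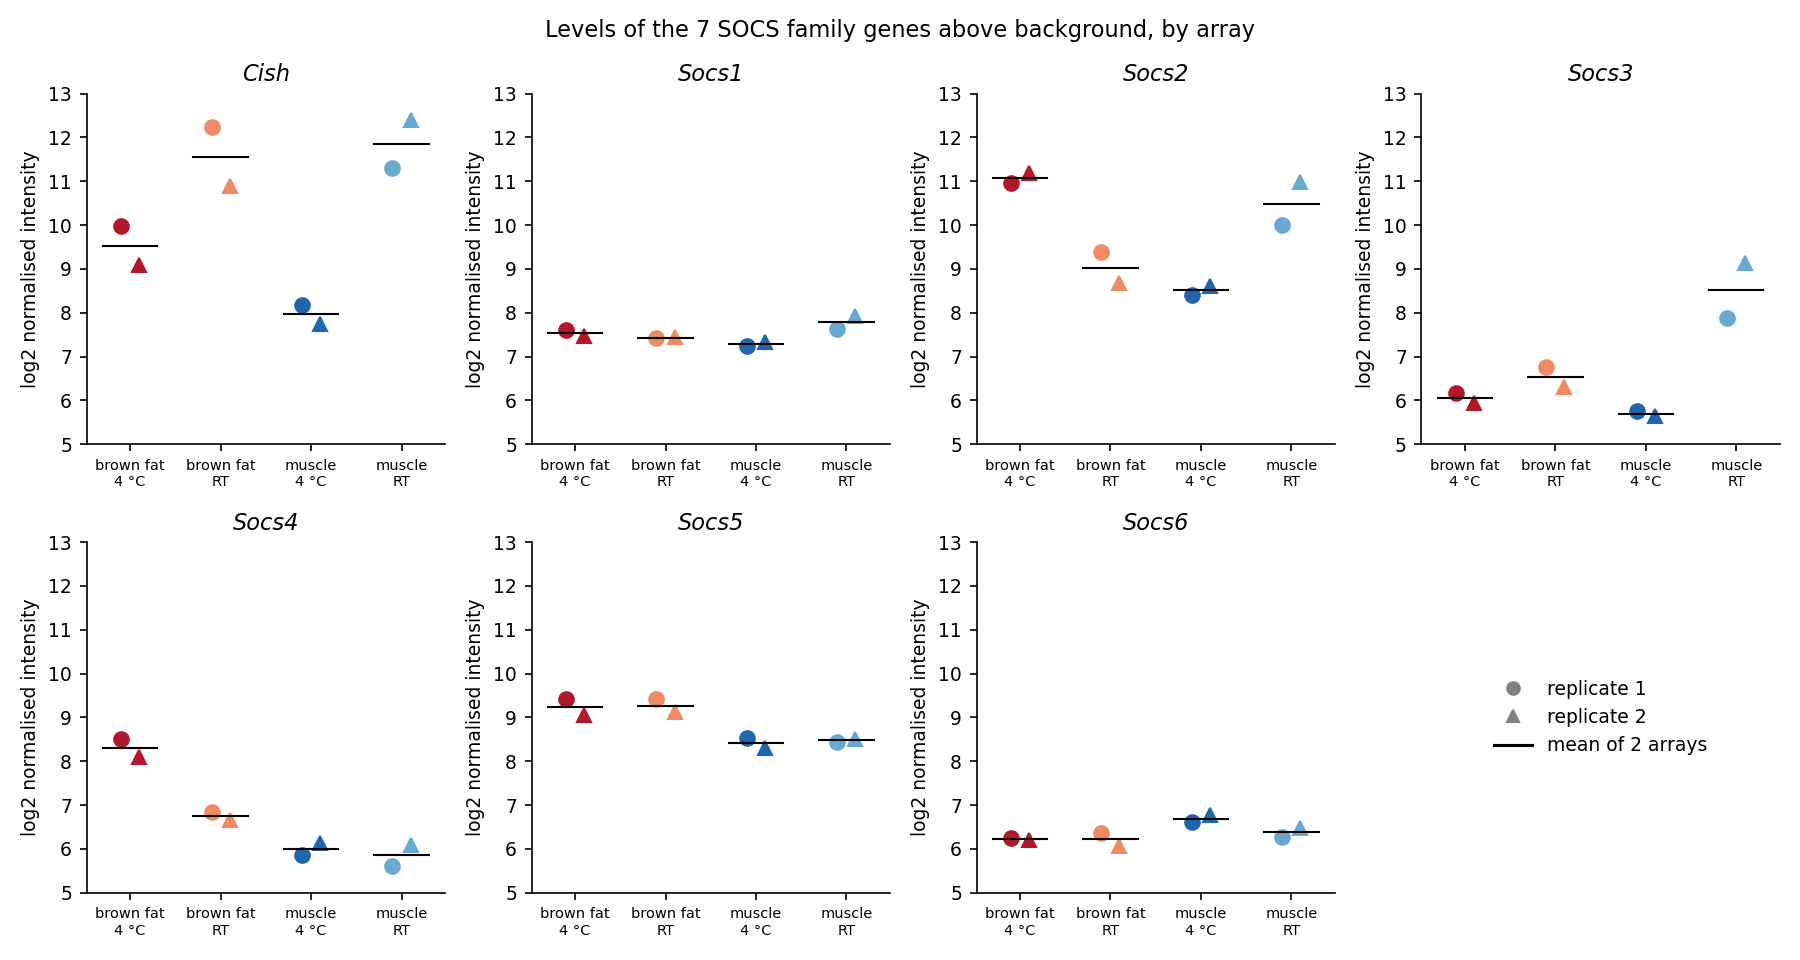
Log2 normalised intensity of each measured gene on every array (circles replicate 1, triangles replicate 2, bars the mean of 2). The axis is shared for layout, and levels are to be compared within a gene and not between genes. Socs2 is highest in brown fat at 4 °C, Cish and Socs3 are highest at RT, and Socs5 separates the tissues.

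Ordered by mean level, Cish and Socs3 shared the same sequence of groups, and the other genes had others. Cish was highest in muscle at RT (11.85 ± 0.76, SD, n = 2) and brown fat at RT (11.56 ± 0.96), which overlapped, followed by brown fat at 4 °C (9.52 ± 0.63) and muscle at 4 °C (7.96 ± 0.31), which did not overlap with their neighbours. Socs2 was highest in brown fat at 4 °C (11.08 ± 0.16) and muscle at RT (10.49 ± 0.70), which overlapped, then in brown fat at RT (9.03 ± 0.50) and lowest in muscle at 4 °C (8.51 ± 0.15). The tissue with the higher Socs2 level therefore changed with temperature: brown fat was 5.91-fold above muscle at 4 °C and 2.75-fold below it at RT. Socs3 stood out in muscle at RT (8.51 ± 0.88), and the other 3 groups lay between 5.69 and 6.53. Socs4 was highest in brown fat at 4 °C (8.30 ± 0.29), then in brown fat at RT (6.75 ± 0.14), with muscle at 4 °C (5.99 ± 0.20) and at RT (5.85 ± 0.34) overlapping. Brown fat was 4.95-fold above muscle for Socs4 at 4 °C and 1.87-fold at RT. Socs5 was higher in brown fat than in muscle by 0.83 log2 units at 4 °C and 0.79 at RT, and its groups overlapped within each tissue. Socs1 and Socs6 varied over less than 1 log2 unit across all arrays. These tissue comparisons include the 2 arrays that stood apart, share the muscle arrays that brought the family to attention, and were not tested.

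Other genes of the pathway were followed in 11 lists of 96 genes in all, of which 87 had a named probe and 55 were tested. In brown fat 3 of the 55 rose and 10 fell, 23.6% of the genes against 16.6% of all genes tested. The median log2 change over the 55 was -0.07, against 0.02 over all genes. Without replicate 1 in the cold, or without replicate 1 at RT, 6 of them were called, and without replicate 1 in the cold and replicate 2 of muscle in the cold together 11 were. In muscle 1 of the 55 rose and 1 fell, 3.64% against 4.21% of all genes, with a median of -0.06 against -0.02 over all genes. Over the 8 leave-outs the muscle count ran from 0 to 3. It was 0 without any 1 of the 4 RT arrays, and 1 without replicate 2 in the cold.

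Among ligands, 3 of 4 tested genes fell in brown fat and 1 was not past the threshold, where 8.24% of all genes tested fell. Lep, the hormone leptin, read 5.54 and 5.66 in brown fat at 4 °C, against 10.50 and 10.17 at RT. It was not above background on either cold array. With the main background correction it fell at least 25.8-fold (limma adjusted p = 0.00108). The fitted log2 change was -4.74, against -3.80 without background correction. The latter is a smaller fall than that bound, so the bound holds for the main setting only. Il15, a cytokine made by fat and muscle, read 6.72 and 7.07 at 4 °C, against 8.62 and 8.51 at RT (change -1.67, SE 0.26, limma adjusted p = 0.00875), and was at an adjusted p of 0.0515 without replicate 1 at RT. Ctf1, cardiotrophin, fell by 0.69 (SE 0.17, limma adjusted p = 0.0368). The call of Ctf1 was lost in 10 of 18 alternatives, and the leave-outs that lost it gave -0.83 and -0.54 without replicates 1 and 2 of brown fat at RT, -0.52 without replicate 1 in the cold, and -0.69 and -0.68 without replicates 1 and 2 of muscle at RT. In muscle 0 of these 4 passed by limma, with 2 lower at an unadjusted p under 0.05, and the largest values were -1.25 for Lep and -0.32 for Il13.

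Of 15 receptor genes tested in 4 lists, 1 rose and 2 fell in brown fat, and the other 12 were not past the threshold. Of all genes tested 8.38% rose and 8.24% fell. Cntfr, the receptor subunit for ciliary neurotrophic factor, rose in brown fat, with 7.01 and 7.05 at 4 °C against 6.19 and 6.05 at RT (change 0.91, SE 0.13, limma adjusted p = 0.00614), a call that median scaling ended (0.68). Epor, the erythropoietin receptor, fell at least 1.16-fold (limma adjusted p = 0.0211), but it was above background in brown fat at RT alone and so entered the test through the group where it is high, and its count among the genes that fell carries no weight. Ifngr2, a subunit of the interferon gamma receptor, fell by 0.66 (SE 0.13, limma adjusted p = 0.0164). Both calls were lost without brown fat replicate 1 in the cold (-0.45 and -0.50) or either brown fat replicate at RT (-0.47 or -0.57 for Epor, -0.71 or -0.62 for Ifngr2), and that of Epor also without either muscle replicate at RT (-0.50 in each case). Of the receptor chains with a common gamma or beta subunit 0 of 5 passed in brown fat by limma, with 1 higher and 1 lower at an unadjusted p under 0.05, and the largest values were -0.39 for Il13ra1 and 0.38 for Csf2ra. In muscle 0 of the 15 receptor genes passed by limma, with 3 higher and 2 lower at an unadjusted p under 0.05. The largest values there, up to 2 a list, were 0.51 for Cntfr, 0.49 for Il6ra, -0.49 for Il13ra1, -0.11 for Il3ra, 0.43 for Ifngr1 and -0.30 for Ifngr2, and Epor was not above background on any muscle array. Ghr, the growth hormone receptor whose signal Cish and Socs2 dampen, read 12.88 and 12.89 in muscle at 4 °C, against 12.70 and 12.88 at RT.

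Of the signal transducers, Stat5a had the clearest change in brown fat. It read 7.57 and 7.63 at 4 °C, against 9.83 and 10.03 at RT, a 5.03-fold fall (log2 change -2.33, SE 0.16, limma adjusted p = 0.00108) that was called in all 18 alternatives. It was the 1 of 5 tested STAT genes that passed, where 16.6% of all genes tested were called. In muscle 0 of 5 passed by limma, with 1 lower at an unadjusted p under 0.05: Stat5a read 6.89 and 7.34 at 4 °C, against 7.58 and 7.44 at RT (change -0.39, interval -0.77 to -0.01, limma adjusted p = 0.233), and the largest value was -0.77 for Stat2. Of 4 Janus kinases Tyk2 fell in brown fat by 0.46 (SE 0.12, limma adjusted p = 0.0435). That call was lost in 11 of 17 alternatives, among them each leave-out of a brown fat array (-0.59 to -0.33) and of a muscle array at RT (-0.45 and -0.44). In muscle 0 of 4 kinases passed, also at an unadjusted p under 0.05, with 0.35 for Jak3 and 0.30 for Jak1.

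Other brakes on the pathway did not pass in either tissue. Of 7 tested phosphatases and PIAS proteins, which dephosphorylate or bind pathway members, 0 passed in brown fat by limma, with 1 higher and 2 lower at an unadjusted p under 0.05. The largest values were -0.61 for Ptpn6 and 0.43 for Ptpn11, and in muscle 0.55 for Ptpn11 and -0.32 for Ptpn6, with 2 higher at an unadjusted p under 0.05. Of 5 tested partners of the SOCS box in its ubiquitin ligase 0 passed in either tissue, also at an unadjusted p under 0.05. The largest values were 0.23 for Cul2 and -0.09 for Rnf7 in brown fat, and -0.11 for Cul2 and -0.10 for Eloc in muscle.

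Genes known to respond to each STAT were read beside the inhibitors. Of 7 STAT5 responsive genes 2 rose and 3 fell in brown fat, where 8.38% of all genes tested rose and 8.24% fell. Their median log2 change was 0.36, against 0.02 over all genes. Igfals, which carries insulin-like growth factor in plasma, read 7.29 and 7.50 at 4 °C, against 9.83 and 9.06 at RT (change -2.05, SE 0.26, limma adjusted p = 0.00435, called in all 18 alternatives). Igf1 itself fell by 1.17 (SE 0.24, limma adjusted p = 0.0192) and Ccnd2, a cyclin, by 1.43 (SE 0.30, limma adjusted p = 0.0209). Without brown fat replicate 1 at RT, Igf1 was at -0.94 and Ccnd2 at -1.12, and without replicate 1 in the cold at -1.03 and -1.40, past the threshold in neither case. Ccnd2 also lost the call without replicate 2 in the cold (-1.46). Ccnd1, another cyclin, rose by 0.77 (SE 0.10, limma adjusted p = 0.00519), and median scaling ended that call. The fifth was the survival gene Bcl2l1, which rose by 0.63 (SE 0.14, limma adjusted p = 0.0266) and is named here outside the rule for named genes, after its values were seen. In muscle 1 of the 7 rose and 1 fell, where 1.83% of all genes tested rose and 2.38% fell. Bcl2l1 rose by 0.83 (SE 0.14, limma adjusted p = 0.0303) and Ccnd1 fell by 0.61 (SE 0.10, limma adjusted p = 0.0304). Each lost the call in at least 5 leave-outs, with values of 0.68 to 0.85 for Bcl2l1 (either array of brown fat at RT, either array of muscle at RT, muscle in the cold replicate 1) and -0.64 to -0.56 for Ccnd1 (these and muscle in the cold replicate 2).

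Of 8 STAT3 responsive genes 0 passed in brown fat by limma, with 1 higher and 2 lower at an unadjusted p under 0.05, and 0 passed in muscle, with 1 lower. The largest values were -2.12 for the early response gene Fos (limma adjusted p = 0.134) and 0.71 for Bcl3 (0.0592) in brown fat, and 0.91 for Fos and -0.64 for the adhesion molecule Icam1 in muscle.

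**Figure D5:**
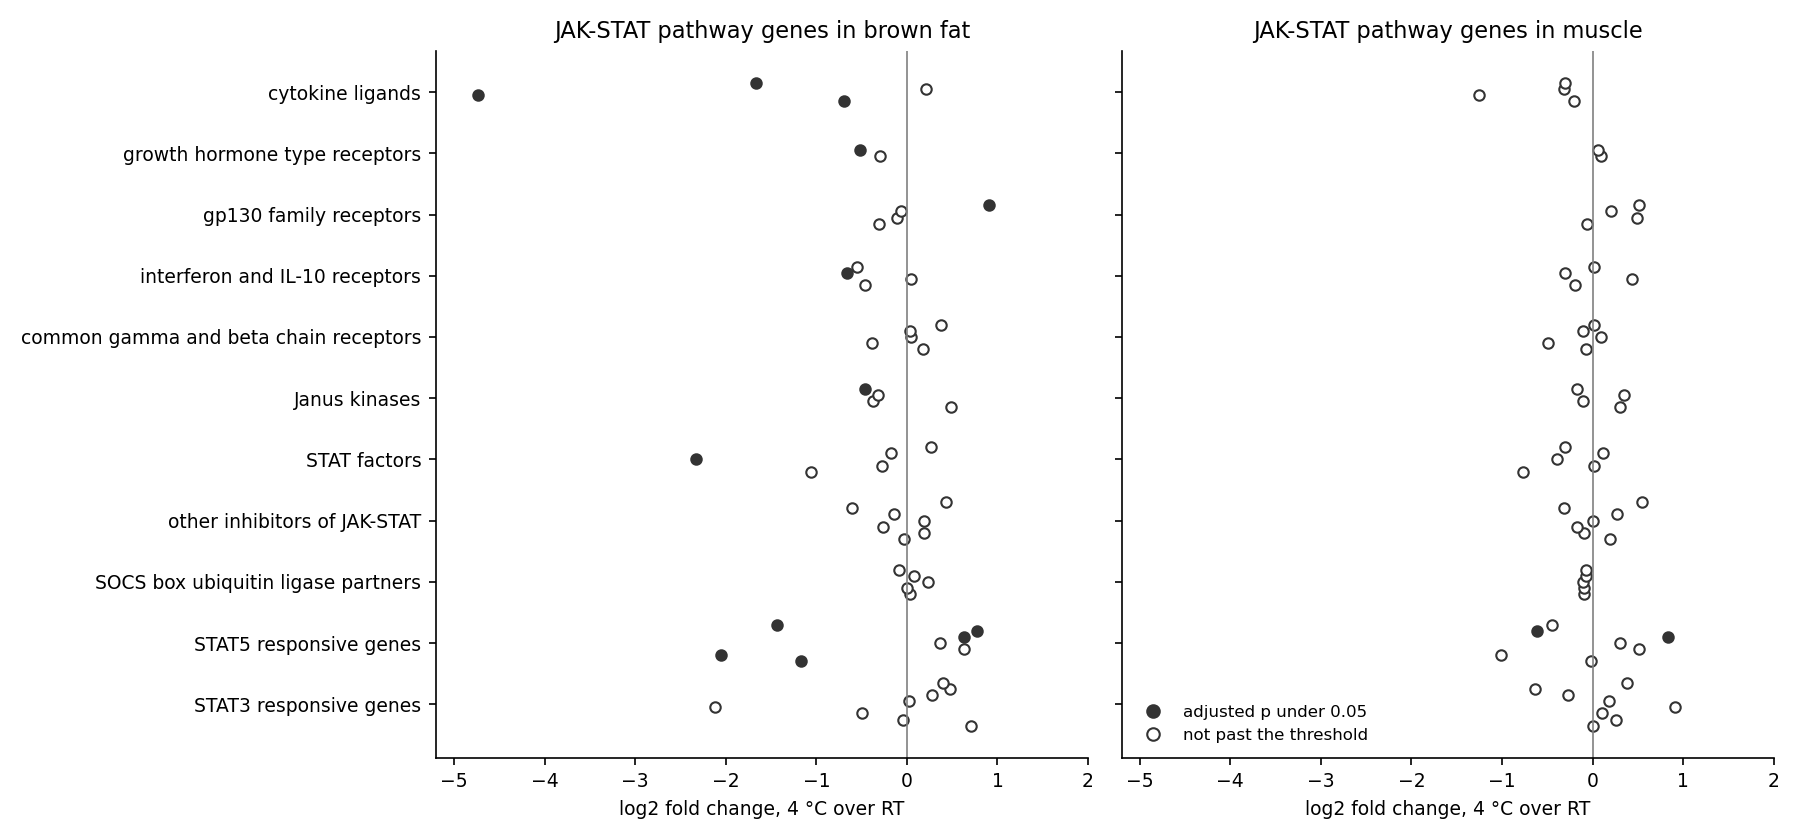
Log2 fold change at 4 °C over RT of the 55 tested pathway genes in 11 lists, 1 circle a gene, in brown fat (left) and muscle (right). Filled circles passed the threshold: 13 genes in brown fat, with Lep at -4.74 farthest below 0, and 2 in muscle.

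The genes whose levels ran most like those of Cish, Socs2 and Socs3 were sought among the 8554 other named genes. Likeness was the root mean square difference of log2 values over the 8 arrays after each gene was centred on its mean, and smaller is more alike. For Cish these were Gbp3 (0.66), Cd274 (0.82), Gbp7 (0.87), Irf1 (0.89) and Psmb9 (0.92), against a median of 1.7 over all candidates and 1.03 to Socs3. Gbp3 and Gbp7 are interferon-inducible GTPases, Cd274 is an immune checkpoint ligand, Irf1 a transcription factor and Psmb9 an immunoproteasome subunit. In brown fat their log2 changes were -2.80, -2.89, -2.14, -1.93 and -2.40 in that order, and in muscle -2.82, -3.53, -1.88, -1.90 and -1.65, where Cish was at -2.03 in brown fat and -3.88 in muscle. For Socs2 they were the cell cycle factor E2f2 (0.66), the zinc exporter Slc30a1 (0.71), Trib2 (0.74), Zfp397 (0.74) and Zfp691 (0.75), against a median of 1.14. E2f2 changed by 1.58 in brown fat and -0.92 in muscle. For Socs3 they were the phosphatase gene Dusp10 (0.59), the collagen gene Col1a1 (0.59), Sox10 (0.63), Col16a1 (0.66) and Phex (0.67), against a median of 1.19. Col1a1 changed by -0.53 in brown fat and -1.95 in muscle. Cish and Socs2, which share STAT5 as a known activator, differed from each other by 1.64 on this measure.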

How the data were processed

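Per the labels' protocols, TRIzol-extracted total RNA was amplified into biotin-labelled cRNA for 1-colour Illumina bead arrays. The deposited table gives 1 linear intensity per probe and array with no background subtracted or scaling applied, as judged from its values, since array medians ran from 87.3 to 98.1. Its deposited detection p-value column rises with the signal and was read as 1 minus the p-value. The authors' processed intensity table, which has values below 0 and the same range on every array and was read as background subtracted and quantile normalised, was used as an alternative. How the authors made it (software, background method, normalisation) is not given in the sources used here.

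With R 4.3.3 and limma 3.58.1, signals were corrected by normexp (offset 16, with negative controls estimated through the detection p-values), quantile normalised and put on the log2 scale. Detection left 11946 probes. The brightest probe was kept per gene, which left 9963 rows (genes and unnamed probes). Of 24607 probes, 20980 carried 1 symbol in the platform annotation, 1 carried several and 3626 none. For 20964 probes the gene was matched in RefSeq GRCm38.p6, and the symbol given there was used, whether or not it differed. Genome positions of probes are not given, since the array's genome build is not named.

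A limma model with 4 group means over all 8 arrays shares 1 variance per gene. It had 4 residual degrees of freedom, and moderation added 3.07. P-values are two-sided and adjusted by Benjamini-Hochberg over 9963 rows. Precision is limited by the number of arrays. Nothing in the labels says that replicates came from separate mice, and p-values then reflect only how far these samples differ, which may be technical. Titles and descriptions number the muscle arrays in the cold in opposite order, and titles were used here. A fold "at least" sets the brighter mean against, per array, the higher of the gene's own value and the lowest detected signal. It depends on the background correction used. No slide or date is named, so no batch was tested.

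Members, lists and tests were chosen with earlier results of these data known. All 8 members are named. Of each pathway list and tissue, the text names up to 4 genes past the threshold with the largest change, or up to 2 where none passed, and the 5 genes most like Cish, Socs2 and Socs3. Some pathway genes are not reported here. Alternatives were another scaling, background, detection filter, probe rule and source table, a fit within each tissue, replicate blocks, and leaving out arrays.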

Additional observations from a re-analysis of the deposited data

Results flagged for a closer look

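Among the family and the pathway genes named by the rule, 5 had both cold arrays on one side of the RT arrays in brown fat and on the opposite side in muscle, and the difference between tissues was not tested in any of them. Socs2 changed by 2.05 log2 units in brown fat and by -1.97 in muscle. Socs1 changed by 0.10 in brown fat, which was not past the threshold, and by -0.49 in muscle. Ccnd1, a cyclin among the STAT5 responsive genes, changed by 0.77 in brown fat and -0.61 in muscle. Il13, a ligand, was at 0.21 in brown fat and -0.32 in muscle, and Icam1, an adhesion molecule among the STAT3 responsive genes, at 0.48 and -0.64, with neither gene past the threshold in either tissue. Some tested pathway genes that the rule does not name showed the same pattern. Among all genes tested, groups did not overlap in 59.6% in brown fat and 54.5% in muscle, in either direction. The share of all genes with opposite sides in the 2 tissues was not counted, so the pattern is a description only.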

How the results depend on the processing

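The number of family genes called in brown fat was 3, and 2 or 3 in all 18 alternatives. No such count is given for muscle, where the members were selected on these values. Signs turned for changes near 0. In muscle Socs4, at 0.13, was -0.10 without RT replicate 1 and -0.01 by median scaling or without both arrays that stood apart, and Socs5, at -0.07, was 0.04 without replicate 2 in the cold or without both. In brown fat 3 genes turned. Median scaling, which moved the median of all genes to -0.11 in brown fat and -0.20 in muscle, gave -0.18 for Socs1 and -0.13 for Socs6. Over the leave-outs Socs5 ran from -0.22 to 0.16 and Socs6 from -0.14 to 0.17. Socs5 was 0.11 without brown fat at RT replicate 1 and 0.16 without replicate 2 in the cold. Socs6 was -0.14 without RT replicate 2, and -0.02 without replicate 1 in the cold, also with muscle in the cold replicate 2 left out. Over all genes, the leave-outs called 285 to 869 higher and 366 to 900 lower in brown fat, and 26 to 460 higher and 19 to 243 lower in muscle. A fit within the tissue called 470 and 515 in brown fat and 65 and 64 in muscle, where the authors' table called 113 and 122 and the block by titles 120 and 121. Of pathway genes 13 were called in brown fat, 7 by median scaling, 8 with detection p under 0.01 on all arrays or in the fit within the tissue, 18 with the block numbered by the descriptions, and 6 to 14 over the leave-outs. In muscle 2 were called, 0 by median scaling or in the fit within the tissue, 1 with the authors' table, with detection p under 0.01 on all arrays or without both arrays that stood apart, and 0 to 3 over the leave-outs. With the replicate number of the titles as a block, 1 pathway gene was called in muscle and Cish in brown fat was at -2.03 (limma adjusted p = 0.0563). With the numbers of the descriptions its adjusted p was 0.0625. Deviations of same-numbered arrays correlated between -0.13 and 0.18. In both cold groups the replicates differed in muscle or brown fat transcripts, so these correlations cannot decide whether the numbers pair the arrays. The slide as a block was not run, since no slide is named. The cause of these differences was not tested.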
